A study of Drosophila melanogaster with 6 samples.

Results

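The 10 genes described here encode the storage proteins and lipoproteins that the larval fat body of *Drosophila melanogaster* makes and secretes, together with proteins that act on them. They were chosen by name, not by a measured value, and each was matched by its symbol to 1 of the 17869 genes in the count files. *Lsp1alpha*, *Lsp1beta*, *Lsp1gamma*, *Lsp2*, *Fbp1* and *Fbp2* form the storage group of 6, and *apolpp*, *Apoltp*, *Mtp* and *NLaz* form the lipid transport group of 4. RNA-seq was performed on whole second-instar (L2) larvae, with 3 libraries from Pyk 23/31 mutants and 3 from Pyk 23/+ controls. The labels do not give the sex of the larvae, and the study's methods for larval collection describe a mix of both sexes. The mutants carry a different frameshift deletion of the pyruvate kinase gene *Pyk* on each copy, both made with CRISPR/Cas9, while the controls carry the 23 deletion over a wild-type copy. The controls are therefore heterozygotes that share 1 mutant allele with the mutants, and no library without a *Pyk* mutation was compared.

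As background, the fat body is the insect counterpart of liver and adipose tissue. Hexamerins, to which the Lsp1 subunits and Lsp2 belong, are large hexameric proteins that are released into the hemolymph during the third instar and taken back up before pupation as a store of amino acids. Lipophorin, the particle built on the *apolpp* product, carries diacylglycerol, sterols and other lipids between gut, fat body and the remaining tissues. Mtp, the microsomal transfer protein, loads lipid onto the apolipoprotein in the endoplasmic reticulum, and the lipid transfer particle built on the *Apoltp* product helps to load lipophorin at the gut.

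The libraries held 12499172 to 16029304 read pairs assigned to genes in the mutants and 11249487 to 11784491 in the controls. *Pyk* averaged 51.8 ± 7.06 CPM (a gene's counts scaled to a common library total, adjusted by TMM, the trimmed mean of M-values) in mutants and 442 ± 23.1 CPM in controls (SD, n = 3 each), and every library matched its label. Replicates of 1 genotype differed by more than sampling noise, with a chi-square per degree of freedom of 19.1 to 31.2 between mutants, largest for the comparisons with mutant replicate 3. It was 16.2 between control replicate 3 and each other control and 3.63 between control replicates 1 and 2. Markers of muscle, neurons, hemocytes, midgut and tracheae were all detected, as whole larvae require, whereas 5 of 6 salivary glue genes (*Sgs1*, *Sgs3*, *Sgs5*, *Sgs7* and *Sgs8*), which are third-instar genes, had at most 3 counts over the 6 libraries. The genotypes were compared with edgeR's quasi-likelihood test over the 11422 genes with at least 12 counts, and a gene passed where its adjusted p did not exceed 0.05.

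*apolpp*, *Apoltp* and *Mtp* were abundant, while *NLaz* and the storage genes were scarce. Summed over each library, the 4 lipid transport genes reached 5836, 5416 and 6102 CPM in mutant replicates 1, 2 and 3, against 7890, 7662 and 7488 CPM in control replicates 1, 2 and 3. The 6 storage genes together reached 24.9, 9.36 and 3.48 CPM in the mutants, against 3.01, 3.604 and 3.09 CPM in the controls. The mutants thus lay below every control for the first sum, while for the second 1 mutant lay within the range of the controls. Most of the first sum was *apolpp*, which averaged 5161 CPM in mutants and 6904 CPM in controls. *NLaz*, in the same group, averaged 5.56 CPM in mutants and 3.29 CPM in controls. Whole larvae were measured, so fewer fat body cells and less RNA per fat body cell cannot be told apart.

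**Figure D1:**
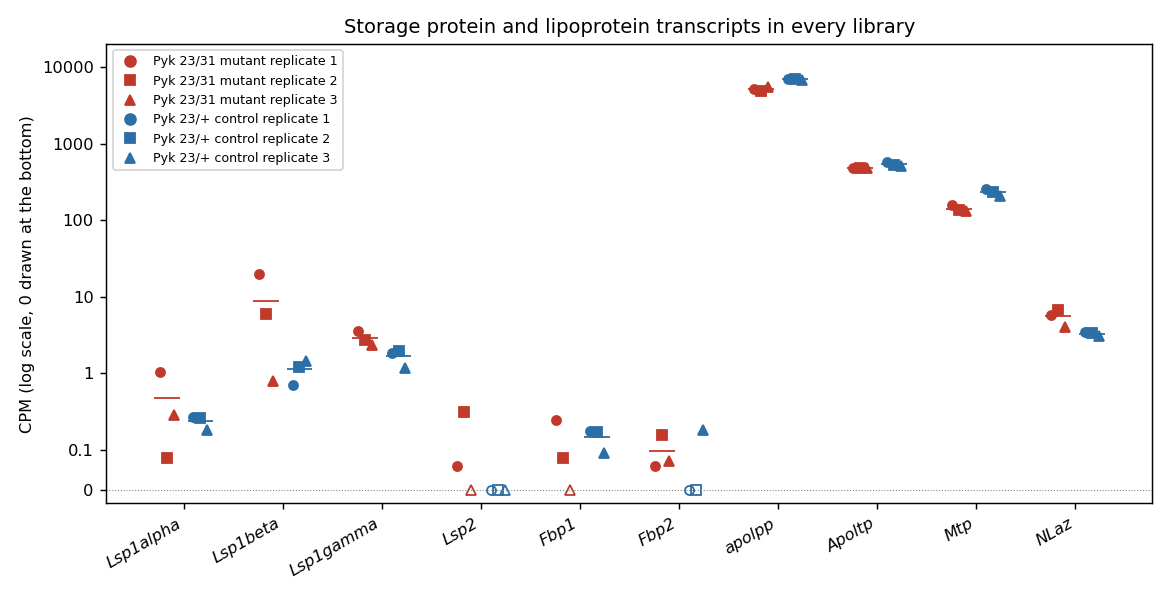
CPM of the 10 genes in each library on a log axis, with the mutants to the left of the controls for each gene, symbols for replicates, a short line at the mean of 3 libraries, and open symbols on the dotted line for libraries with no count. *apolpp* lies between 4800 and 7051 CPM in all libraries, while *Lsp2*, *Fbp1* and *Fbp2* lie at or below 4 counts in each.

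Of the 10 genes, 7 had enough counts to be tested, of which 2 rose, 3 fell and 2 did not pass, and 3 were not tested. Across all genes tested, 22.2% rose and 26.0% fell, 48.2% together, so that passing the test was common in these libraries. These shares are the background of every list count below. Of the 1585 genes with a mean of at least 100 CPM, 65.4% passed. None of the 7 passed at 2-fold or more, a size reached by 7.50% of all genes (5.25% higher and 2.25% lower), whereas under DESeq2 *Lsp1beta* did. The median log2 fold change (mutant over control) was 0.75 over the 7 genes and 0.015 over all genes. The value of 0.75 describes neither group. The median was -0.30 over the 4 lipid transport genes and 1.05 over the 3 storage genes tested, of which 2 did not pass. The genotypes did not overlap for 5 of the 7 genes, against 60.9% of all genes. The number that rose, 2 here, was 0 without mutant replicate 2, 1 without mutant replicate 1, control replicate 1 or control replicate 3, and 3 without mutant replicate 3.

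**Figure D2:**
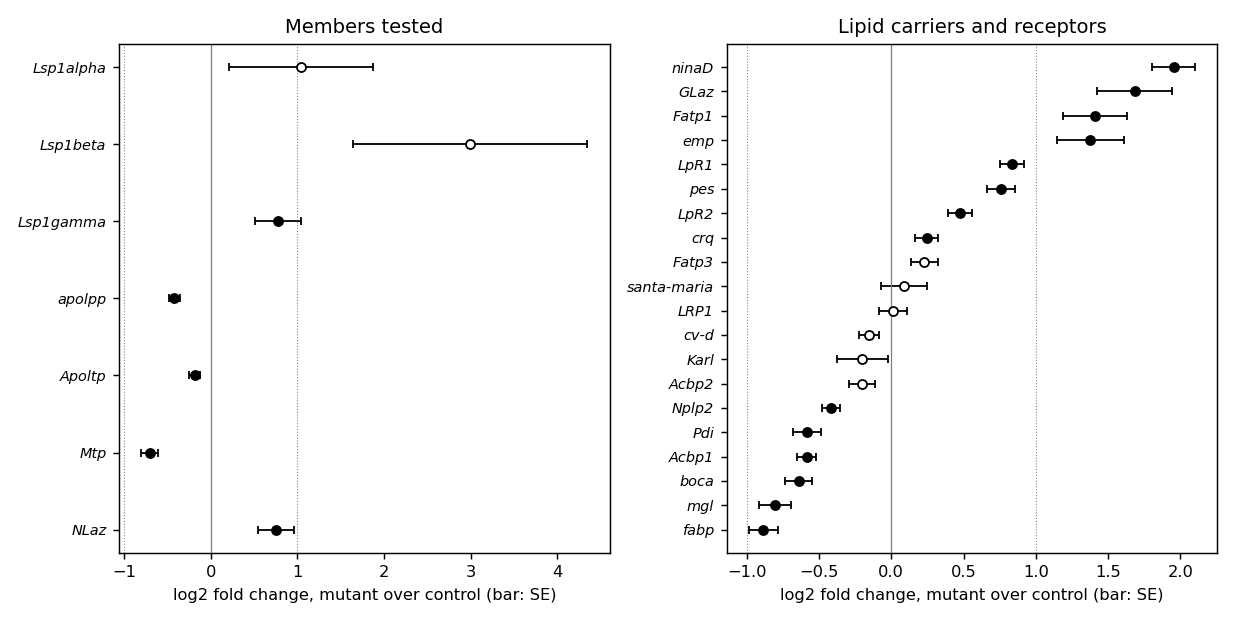
Log2 fold change (mutant over control) with its SE for the 7 genes that were tested (left) and for 20 lipid carriers and receptors (right), with filled symbols for genes that passed and dotted lines at 2-fold. *apolpp*, *Apoltp* and *Mtp* lie left of 0, *Lsp1gamma* and *NLaz* to the right, and the widest bars belong to *Lsp1alpha* and *Lsp1beta*.

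*apolpp* (FBgn0087002, chromosome 4 from 1060969 to 1077273, plus strand, in the BDGP6.54 annotation) encodes apolipophorin, the scaffold of lipophorin. It had 5191, 4800 and 5492 CPM in mutant replicates 1, 2 and 3, against 7051, 6897 and 6762 CPM in control replicates 1, 2 and 3. Every mutant lay below every control, and the gap between the groups was wider than the spread within either. *apolpp* fell by 0.42 on the log2 scale (SE 0.063, edgeR adjusted p = 0.00051), or 25.2% less transcript. The gene remained among the most counted in the larva, at rank 9 to 11 of all genes by CPM in every library, and took 0.526%, 0.492% and 0.561% of the assigned pairs in the mutants, against 0.686%, 0.682% and 0.662% in the controls. The 95% Wilson intervals of these shares, which cover counting error only, ran from 0.488% to 0.565% over the mutants and from 0.657% to 0.691% over the controls. Its exons span 11.8 kb, and per kilobase of exon it had 439 ± 29.5 CPM in mutants and 587 ± 12.3 CPM in controls (SD, n = 3 each), which placed it at rank 178 to 231.

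*Mtp* (FBgn0266369, 2L from 20919094 to 20922876, minus strand) had the largest fall of the 3 lipoprotein genes. It had 157, 135 and 133 CPM in the mutants, against 254, 233 and 206 CPM in the controls. The lowest control stood well above the highest mutant, and within each genotype replicate 3 was the lowest library. *Mtp* fell by 0.71 on the log2 scale (SE 0.094, edgeR adjusted p = 0.00027), or 38.7%.

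*Apoltp* (FBgn0032136, 2L from 9634179 to 9656026, plus strand) encodes the apolipoprotein of the lipid transfer particle. It had 482, 475 and 473 CPM in the mutants, against 581, 528 and 516 CPM in the controls. The mutants were close to each other and all lay below the controls, by a small margin. *Apoltp* fell by 0.18 on the log2 scale (SE 0.063, edgeR adjusted p = 0.035). This call was lost in 8 of 16 alternatives, among them scaling by library totals (-0.13, edgeR adjusted p = 0.11) and each of the omissions of mutant replicate 1, 2 or 3 or control replicate 1 or 2, over an adjusted p of 0.021 to 0.12.

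The 3 falls were of unequal size, and the proportions among these transcripts differed between the genotypes. For every 100 read pairs of *apolpp*, the mutants had 9.29, 9.89 and 8.62 pairs of *Apoltp*, against 8.23, 7.65 and 7.63 in the controls. *Mtp* went the other way, with 3.03, 2.82 and 2.42 pairs per 100 of *apolpp* in the mutants, against 3.603, 3.38 and 3.05 in the controls. The largest contrast was between *Mtp* and *Apoltp*, with 32.6, 28.5 and 28.0 pairs of *Mtp* per 100 of *Apoltp* in the mutants, against 43.8, 44.2 and 39.9 in the controls, a difference of -0.52 on the log2 scale. None of these ratios overlapped between the genotypes. Among 6 ratios compared, chosen after the levels were seen, these 3 had an exact two-sided permutation p of 0.1 (n = 3 each; 0.12 after Benjamini-Hochberg adjustment), the smallest that 3 samples against 3 allow, and so none can pass 0.05. The ratios do not depend on how the libraries were scaled.

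**Figure D3:**
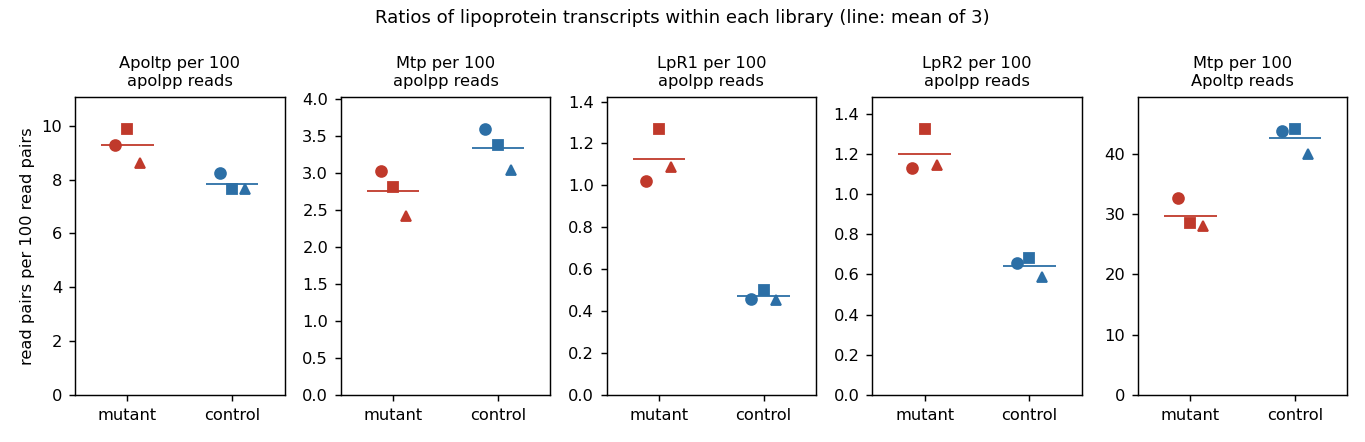
Read pairs of 1 transcript per 100 read pairs of another within each library, for 5 pairs of genes, with mutants on the left, controls on the right, symbols for replicates and a line at the mean of 3. Relative to *apolpp*, *Apoltp*, *LpR1* and *LpR2* are higher in all mutants than in any control and *Mtp* is lower, by a narrow margin of 3.03 against 3.05 at the closest libraries.

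Genes of lipid carriers and receptors changed in both directions. Of 20 genes of lipid carriers, receptors and their assembly, 8 rose, 6 fell and 6 did not pass, with a median log2 fold change of 0.049. Among all genes tested, 22.2% rose and 26.0% fell. *LpR1* and *LpR2*, the lipophorin receptors through which tissues take up lipid, both rose. *LpR1* had 52.9, 61.0 and 59.9 CPM in the mutants, against 32.1, 34.4 and 30.8 CPM in the controls, a log2 fold change of 0.84 (SE 0.082, edgeR adjusted p = 5.6e-05). *LpR2* had 58.7, 63.6 and 62.8 CPM in the mutants, against 46.3, 47.1 and 39.8 CPM in the controls, a log2 fold change of 0.47 (SE 0.083, edgeR adjusted p = 0.0012). Neither receptor overlapped between the genotypes, which held for 60.9% of all genes. For every 100 pairs of *apolpp* there were 1.13 ± 0.130 pairs of *LpR1* in mutants and 0.470 ± 0.0252 in controls (SD, n = 3 each; exact two-sided permutation p of 0.1).

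Other members of that list that rose with the smallest p were *ninaD* and *pes*, genes of the CD36 family of scavenger receptors. *ninaD*, which is known for carotenoid uptake, averaged 43.3 ± 3.35 CPM in mutants and 11.2 ± 2.51 CPM in controls (SD, n = 3 each), and its log2 fold change was 1.95 (SE 0.15). *pes* had a log2 fold change of 0.76 (SE 0.098). The related gene *emp* rose by 1.38 (SE 0.23) and the fatty acid transport protein gene *Fatp1* by 1.41 (SE 0.22), and both were named after their values were seen. These 4 genes had an edgeR adjusted p of at most 0.0071.

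Among the genes that fell, *Acbp1*, which encodes an acyl-CoA-binding protein, fell by 0.59 on the log2 scale (SE 0.065), and *mgl*, the fly megalin gene of the LDL receptor family, by 0.80 (SE 0.11). *boca*, whose product folds receptors of that family in the endoplasmic reticulum, had 15.3, 15.5 and 14.4 CPM in the mutants, against 25.8, 23.2 and 21.4 CPM in the controls, and fell by 0.64 (SE 0.093). Genes of the LDL receptor family thus differed among themselves, since *LpR1* and *LpR2* rose and *mgl* fell. *LRP1*, named after its values were seen, did not pass (log2 fold change 0.011, SE 0.096). *fabp*, which encodes a fatty acid-binding protein, fell by 0.89 (SE 0.099), but 72.1% of its exon bases are shared with *sea* on the same strand, so its counts cover only part of the transcript. *Pdi*, which encodes a protein disulfide isomerase and whose mammalian counterpart is the partner of the microsomal transfer protein, was named after its values were seen. It had 743, 653 and 567 CPM in the mutants, against 1004, 1032 and 907 CPM in the controls, with no overlap, and fell by 0.58 (SE 0.099). The 5 genes named here that fell had an edgeR adjusted p of at most 0.0014.

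**Figure D4:**
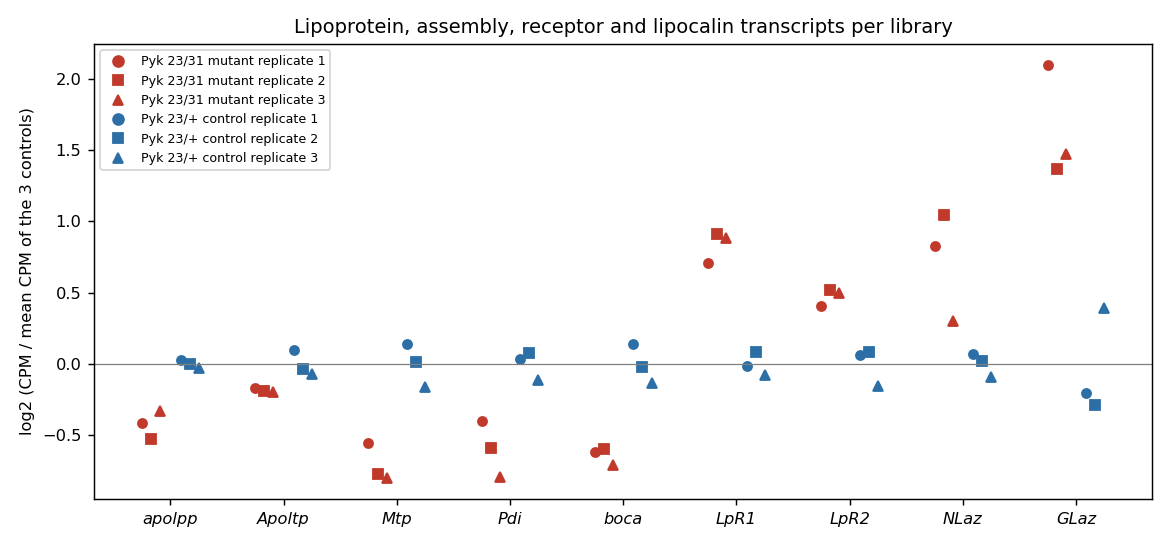
Log2 of the CPM of each library over the mean of the 3 controls, for the lipoprotein genes, *Pdi*, *boca*, the lipophorin receptors and the lipocalins *NLaz* and *GLaz*, with mutants to the left of controls for each gene and symbols for replicates. All mutant symbols of *apolpp*, *Apoltp*, *Mtp*, *Pdi* and *boca* lie below 0 and all those of *LpR1*, *LpR2*, *NLaz* and *GLaz* lie above it.

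*NLaz* (FBgn0053126, 2L from 1359837 to 1361821, minus strand) encodes Neural Lazarillo, a secreted lipocalin related to mammalian apolipoprotein D that is known from stress resistance and metabolic control downstream of JNK signalling. It was expressed at a low level, with 5.85, 6.79 and 4.05 CPM in the mutants, against 3.45, 3.35 and 3.09 CPM in the controls. These levels rest on 95, 87 and 57 counts in the mutants, against 39, 39 and 34 counts in the controls. Each mutant was higher than each control, with mutant replicate 3 the nearest to them. *NLaz* rose by 0.75 on the log2 scale (SE 0.21, edgeR adjusted p = 0.013), and without mutant replicate 2 the change was 0.59 and missed the threshold (edgeR adjusted p = 0.052, over alternatives from 0.0026 to 0.052).

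Of the other lipocalin genes, *GLaz* (Glial Lazarillo) had 15.7, 9.44 and 10.2 CPM in the mutants, against 3.18, 3.00 and 4.81 CPM in the controls. It rose by 1.69 (SE 0.26, edgeR adjusted p = 0.0013), which is past 2-fold. The remaining lipocalin gene *Karl* had 3.63, 3.12 and 2.91 CPM in the mutants, against 3.45, 3.604 and 4.09 CPM in the controls, and its log2 fold change of -0.20 (SE 0.18) did not pass (edgeR adjusted p = 0.37). Both genes were named after their values were seen.

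The Lsp1 subunits are encoded by 3 separate genes on different chromosome arms, and their transcripts did not follow 1 pattern. *Lsp1beta* (FBgn0002563, 2L from 898500 to 901316, plus strand) was counted 324, 77 and 11 times in the mutants, against 8, 14 and 16 times in the controls. In CPM these were 19.9, 6.01 and 0.782 in the mutants, against 0.708, 1.20 and 1.45 in the controls. Mutant replicates 1 and 2 were above all controls, while mutant replicate 3 lay within their range. The log2 fold change was 3.00 (SE 1.35), and it did not pass (edgeR adjusted p = 0.14). Without mutant replicate 3 it was 3.54 and passed (edgeR adjusted p = 0.032), and it also passed with all libraries under DESeq2 (3.01, DESeq2 adjusted p = 0.022), over an adjusted p of 0.022 to 0.50 in all alternatives.

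*Lsp1gamma* (FBgn0002564, 3L from 66430 to 68995, plus strand) was counted 57, 35 and 33 times in the mutants, against 21, 23 and 13 times in the controls. These were 3.51, 2.73 and 2.35 CPM in the mutants, against 1.86, 1.97 and 1.18 CPM in the controls. No mutant overlapped a control, and mutant replicate 3 was here above all controls. The gene rose by 0.78 on the log2 scale (SE 0.26, edgeR adjusted p = 0.033). The call was lost under DESeq2 (DESeq2 adjusted p = 0.098) and without mutant replicate 1 or 2 or control replicate 1 or 3, over an adjusted p of 0.024 to 0.13.

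*Lsp1alpha* (FBgn0002562, X from 12490291 to 12492982, plus strand) was the scarcest of the 3. It had 17, 1 and 4 counts in the mutants, against 3, 3 and 2 counts in the controls. Only mutant replicate 1 was clearly above the controls, and mutant replicate 2 was below them. The log2 fold change of 1.05 (SE 0.83) did not pass (edgeR adjusted p = 0.32), and without mutant replicate 1 it was -0.33, so its sign rests on that library. For every 100 pairs of *Lsp1gamma* there were 568, 220 and 33.3 pairs of *Lsp1beta* in the mutants, against 38.1, 60.9 and 123.1 in the controls (exact two-sided permutation p of 0.5, n = 3 each). The order of these subunit transcripts thus turned between mutant libraries. In the controls only replicate 3 had more *Lsp1beta*, by 16 against 13 counts, which is too few to order them. Over the 6 libraries, 1 pair was counted on the strand opposite to *Lsp1beta*, against 450 on its own, and 0 on that opposite to *Lsp1alpha* or *Lsp1gamma*.

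*Lsp2*, *Fbp1* and *Fbp2* lay at the limit of detection. *Lsp2* (FBgn0002565, 3L from 12129393 to 12131869, plus strand), the gene of the other hexamerin, had 1, 4 and 0 counts in the mutants, against 0, 0 and 0 counts in the controls. The 0 counts over the controls allow a level of up to 0.0883 CPM (3 counts), and the 5 counts over the mutants correspond to 0.116 CPM with an exact 95% counting interval of 0.0376 to 0.271 CPM. The same interval of the controls reaches 0.109 CPM. The 2 intervals overlap, which is not a test of a difference. With so few counts a difference was not tested, and none is claimed. *Fbp1* (FBgn0000639, 3L from 14094589 to 14098053, minus strand), which encodes the fat body receptor for Lsp1, had 4, 1 and 0 counts in the mutants, against 2, 2 and 1 counts in the controls. *Fbp2* (FBgn0000640, 2L from 9426784 to 9427917, plus strand), which encodes a relative of alcohol dehydrogenase, had 1, 2 and 1 counts in the mutants, against 0, 0 and 2 counts in the controls. All 3 genes lay under the minimum of 12 counts, and no fold change is given for them.

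Genes that respond to ecdysone, the steroid hormone that times molts and to which *Fbp1* is known to respond in the third instar, were read beside the storage genes. Of 14 such genes, 13 were tested, 4 rose, 0 fell and 9 did not pass under edgeR, against 9 higher and 0 lower under DESeq2. Without robust dispersion 8 rose, and 0 were lower at an unadjusted edgeR p under 0.05. The summed level of the 14 ranged from 693 to 872 CPM in the mutants and from 237 to 373 CPM in the controls. The genes that rose were *Eip78C*, with a log2 fold change of 1.83 (SE 0.23), the ecdysone receptor gene *EcR* with 0.89 (SE 0.13), *Eip75B* with 0.83 (SE 0.20) and *ftz-f1* with 2.48 (SE 0.60), at an edgeR adjusted p of at most 0.030. Of the exon bases of *ftz-f1*, 29.4% are shared with a noncoding RNA gene on the same strand. The number that rose was 2 without control replicate 1 or control replicate 2 and 7 without control replicate 3.

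The ecdysone-inducible gene *ImpE1* shared the split of the mutants seen for *Lsp1beta*. It had 127, 244 and 3.84 CPM in the mutants, against 3.45, 5.84 and 7.26 CPM in the controls. As for *Lsp1beta*, mutant replicate 3 lay within the range of the controls, but mutant replicate 2 was the highest library for *ImpE1* and mutant replicate 1 for *Lsp1beta*. *ImpE2* had 34.7, 108 and 15.3 CPM in the mutants, against 2.57, 3.95 and 8.72 CPM in the controls. *Eip74EF* had 99.05, 68.5 and 128 CPM in the mutants, against 2.74, 4.63 and 37.05 CPM in the controls, and here mutant replicate 3 was the highest library. *ImpE1*, *ImpE2* and *Eip74EF* did not pass (edgeR adjusted p = 0.086, 0.058 and 0.13) and were named after their values were seen. Their part in the levels of *Lsp1beta* was not tested.

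**Figure D5:**
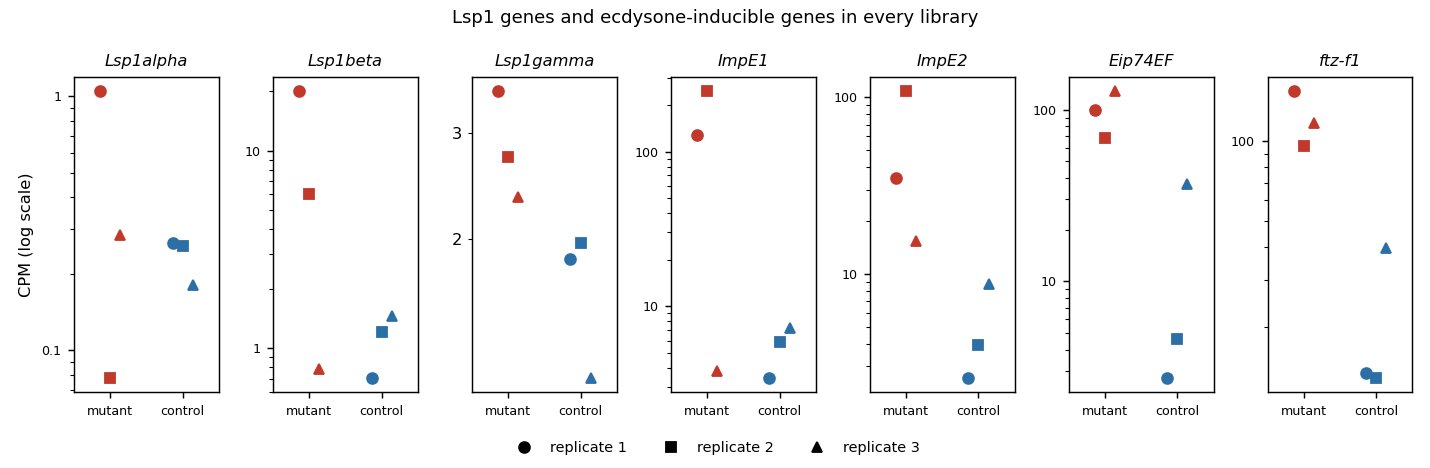
CPM in each library, on a log axis of its own for each gene, of the 3 Lsp1 genes and 4 genes that respond to ecdysone, with mutants on the left, controls on the right and symbols for replicates. Mutant replicate 3 (triangle) lies among the controls for *Lsp1beta* and *ImpE1*, at 0.782 and 3.84 CPM, and above them for *Lsp1gamma*, *ImpE2*, *Eip74EF* and *ftz-f1*.

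Per kilobase of exon, on which genes can be compared, the order of the members differed from that by CPM. *apolpp* came first in every library. *Mtp*, with 48.4 ± 4.65 CPM per kilobase in mutants and 78.9 ± 8.20 in controls, came before *Apoltp*, with 35.8 ± 0.359 in mutants and 40.6 ± 2.58 in controls (SD, n = 3 each), although *Apoltp* had more reads, because the exons of *Apoltp* span 13.3 kb and those of *Mtp* 2.93 kb. These neighbours did not overlap in either genotype. *NLaz* had 4.84 ± 1.21 CPM per kilobase in mutants and 2.87 ± 0.163 in controls, and it came next in the controls, whereas in the mutants its libraries overlapped those of *Lsp1beta*. *Lsp1beta* (3.24 ± 3.604 in mutants and 0.408 ± 0.138 in controls) and *Lsp1gamma* (1.14 ± 0.237 in mutants and 0.668 ± 0.171 in controls) could not be ordered, since their libraries overlapped in both genotypes. The other 4 storage genes had means of at most 0.179 CPM per kilobase in either genotype.

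Of 12 other genes that are highly expressed in or used to mark fat body, most of which other tissues also express, 11 were tested, 5 rose, 2 fell and 4 did not pass, and their sum ranged from 4135 to 5215 CPM in the mutants and from 4754 to 6312 CPM in the controls. The number that rose was 3 without control replicate 2. *Lpin* (1.01, SE 0.086), a lipin gene of triglyceride synthesis, the insulin-like peptide gene *Ilp6* (1.47, SE 0.17), the GATA factor gene *srp* (0.32, SE 0.071) and *AkhR* (0.66, SE 0.17), the receptor gene of adipokinetic hormone, were among those that rose, with 10.9% of the exon bases of *Lpin* and 16.1% of those of *srp* shared with another gene on the same strand. The perilipin gene *Lsd-1* had 153, 149 and 188 CPM in the mutants, against 324, 295 and 264 CPM in the controls, and fell by 0.85 (SE 0.11). The hemolymph clotting gene *fon* had 1045, 1055 and 1041 CPM in the mutants, against 1622, 1642 and 1369 CPM in the controls, and fell by 0.56 (SE 0.074). All 6 had an edgeR adjusted p of at most 0.016. Fat body markers thus differed in both directions. The falls of *apolpp* and *Apoltp* were smaller than those of *Lsd-1* and *fon*, while that of *Mtp*, by 0.71, lay between them. *Adh*, a defining gene of larval fat body, had 1, 0 and 0 counts in the mutants, against 0, 3 and 1 in the controls, but 93.9% of its exon bases are shared with *Adhr* on the same strand, and pairs that fit both genes are left out of such counts, so it checks nothing here.

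Markers of other tissues also differed between the genotypes, and their part in the results above was not tested. The summed level ranged from 36488 to 41584 CPM in mutants and from 41674 to 43442 CPM in controls for 5 muscle genes, of which 3 fell, and from 115.4 to 138 CPM in mutants and from 134 to 141 CPM in controls for 4 hemocyte genes, of which 1 fell. It ranged from 295 to 346 CPM in mutants and from 231 to 262 CPM in controls for 4 neuronal genes, of which 3 rose, and from 3044 to 3654 CPM in mutants and from 1560 to 2343 CPM in controls for 5 tracheal genes, of which 3 rose. For 4 midgut genes, of which 2 rose, it was 685 to 839 CPM in mutants and 293 to 350 CPM in controls. Most of the midgut sum was *betaTry*, with a mean of 585 CPM in mutants and 167 CPM in controls, while *Npc1b* and *Amy-p* did not pass. Most of the tracheal sum was *verm* and *serp*, while *Gasp* and *btl* did not pass, *btl* at a log2 fold change of 0.068 (SE 0.17). The sums thus do not measure the amount of a tissue. All markers of these 5 lists were counted in every library, whereas *Sgs4* was the 1 glue gene with enough counts for the test, at 7 over the mutants and 6 over the controls.

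A list of relatives gave a further comparison. Its genes share a protein family or superfamily with members, except the yolk protein genes *Yp1*, *Yp2* and *Yp3*, which do not. Of the 11 genes in this list, yolk protein genes included, 7 were tested, 1 rose, 0 fell and 6 did not pass under edgeR. Under DESeq2 0 were lower, and 1 was lower, *cv-d*, at an unadjusted edgeR p under 0.05. The gene that rose was *GLaz*, and the other relatives described here were named after their values were seen. The prophenoloxidases, which belong to the same superfamily as the hexamerins, are encoded by *PPO1*, *PPO2* and *PPO3*. *PPO1* averaged 22.2 ± 4.29 CPM in mutants and 21.9 ± 1.36 CPM in controls and *PPO2* averaged 29.1 ± 5.43 CPM in mutants and 31.3 ± 3.19 CPM in controls (SD, n = 3 each), neither of which passed. *cv-d*, a lipoprotein of the same family as the *apolpp* and *Apoltp* products that is known from vein development, had 116, 108 and 121 CPM in the mutants, against 132, 129 and 124 CPM in the controls, and its log2 fold change of -0.15 (SE 0.068) did not pass (edgeR adjusted p = 0.084). The yolk protein gene *Yp1* had 1 count over the 6 libraries, and *Adhr*, whose exons overlap those of *Adh*, had 0.

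Replicate 3 of each genotype was placed on the log2 scale between 0, the average of the other controls, and 1, the average of the other mutants. Control replicate 3 lay at 0.092 for *apolpp*, 0.32 for *Mtp* and 0.48 for *Apoltp*, and at -0.14 for *LpR1*, -0.60 for *LpR2* and -0.16 for *NLaz*. It was the lowest control for each of these genes. Its position was therefore positive where the mutants were lower and negative where they were higher, which shows no opposing shifts. Mutant replicate 3 lay at 0.71 for *apolpp*, 1.19 for *Mtp*, 1.07 for *Apoltp*, 1.10 for both *LpR1* and *LpR2*, 0.29 for *NLaz* and -0.067 for *Lsp1beta*. *Mtp* and the receptors were therefore at their full difference in the library in which *Lsp1beta* was at the level of the controls.

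The similarity of expression patterns over the 6 libraries was described by Pearson's r of log2 CPM against 7259 genes with a mean of at least 10 CPM. The points share libraries and the genotype difference, so high values are common. For *apolpp* the highest values belonged to *CG13601* and *CG34310*, with r of 0.999 to 1.00, and 29 genes reached 0.99. *Mtp* was closest to *GatA*, *Srlp* and *EMC1*, with r of 0.998 each, and 72 genes reached 0.99. For *Lsp1beta* no gene reached 0.99, but few did for other members either, with 1 for *Lsp1gamma*, 1 for *Apoltp* and 2 for *NLaz*. The highest for *Lsp1beta* were *CG32795*, *neo* and *CG43366*, with r of 0.972 to 0.980. Their log2 fold changes were 0.10, 2.65 and 3.29, and none passed.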

How the data were processed

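Whole L2 larvae of 3 mutant and 3 control samples were sequenced in paired ends (TruSeq Stranded mRNA). The authors deposited raw counts of read pairs per gene for each library; the submitters' notes name STAR and BDGP6, with versions not given in the sources used here, while the methods of the study describe Kallisto and DESeq2 for its own tables. Counts of the strand that fits the kit were used. The opposite strand held 2.50% to 2.55% of stranded pairs, and 486 lines that name no gene, with 0.0329% to 0.0461% of pairs, were left out. Symbols, places and exon lengths come from the BDGP6.54 annotation.

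Genotypes, grouped by label, were compared with edgeR 4.0.16 in R 4.3.3 (TMM, robust quasi-likelihood test, Benjamini-Hochberg) over genes with at least 12 counts. SE is the log2 fold change divided by the square root of F. DESeq2 1.42.0, limma-voom (limma 3.58.1), other scalings and filters, unstranded counts and omissions of libraries were alternatives. The fits were tested on simulated data. The study calls the samples biological replicates without naming separate cultures for RNA, so p-values measure the spread between them. Groups of 3 were not tested for outliers.

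The 10 genes, the lists, the tests and the rule for named genes (all members; in each list up to 4 genes a direction with the smallest p; markers at 3 counts or fewer) were chosen with earlier results of these data known. No sequence is printed. For the genes with patterns most like those of the members, 1 gene is not reported here.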

Additional observations from a re-analysis of the deposited data

How the results depend on the processing

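*apolpp*, *Mtp*, *LpR1* and *LpR2* kept their direction and passed in all 16 alternatives, at log2 fold changes of -0.49 to -0.36, -0.80 to -0.64, 0.76 to 0.90 and 0.38 to 0.53. The number of the 10 genes that rose ranged from 0 to 3 when 1 library was left out, and the number that fell from 2 to 3. *Lsp1alpha* changed sign to -0.33 without mutant replicate 1 and ranged up to 1.495 without mutant replicate 2. With fewer libraries the test also has fewer degrees of freedom, and the cause of each lost call was not tested. Of the ecdysone-response genes, 4 rose with all libraries, against 9 under DESeq2, 8 without robust dispersion, 8 without replicate 3 of both genotypes, and 2 to 7 when 1 library was left out. In the list of relatives and yolk protein genes, 1 fell without replicate 3 of both genotypes and 0 to 1 when 1 library was left out. The number of fat body markers that rose was 3 to 5 when 1 library was left out. Scaled by library totals, *Apoltp* averaged 486 CPM in mutants, against 477 CPM with TMM. No pairing by replicate number was seen, since the same-numbered libraries of both genotypes deviated from their group means with r of -0.29, -0.10 and -0.31. Deviations from a mean of 3 libraries depend on each other, so these values cannot exclude an effect shared by replicate number. With the replicate number as a block, 2 of the 10 genes rose and 3 fell, and *Mtp* had a log2 fold change of -0.71. Depth limits *Lsp1alpha*, *Lsp2*, *Fbp1* and *Fbp2*.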
